A study of Mus musculus with 21 samples.

Results

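The comparison described here is the main effect of the *Ifnk* transgene on RNA in skin-draining inguinal lymph nodes (SDLNs), taken over mice with and without UVB. Its members are 12 of the 21 libraries of the series, namely 6 from *Ifnk* TG and 6 from WT nodes, chosen by genotype alone and fitted with treatment as a blocking factor. WT mice were BALB/c. *Ifnk* TG mice carry *Ifnk* under the keratin 14 promoter, which is active in basal keratinocytes of the epidermis. The line was made on C57BL/6 with a PiggyBac vector and backcrossed onto BALB/c over several generations, so the transgene and any C57BL/6 segments that it carried along cannot be told apart in this comparison. Each genotype had 3 libraries without UVB (NoTx) and 3 from mice whose shaved skin had received 250 mJ/cm2 UVB of 310 nm on 3 days a week for 2 weeks, followed by 2 weeks of observation (UVTx). The study's scheme gives young mice of 12 weeks without skin lesions, and does not say at which step of the experiment that age applied. The labels give no mouse, sex or litter for a library, so p-values measure the spread between these libraries only.

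IFN-κ is a type I IFN made mainly by keratinocytes. Like other type I IFNs it binds the IFNAR1/IFNAR2 receptor and acts through the kinases JAK1 and TYK2 and a transcription factor complex that holds IRF9, which switches on IFN-stimulated genes (ISGs) by binding IFN-stimulated response elements (ISREs) in their promoters. Lymph from the skin, with its migrating dendritic cells and soluble cytokines, enters the inguinal node through lymphatic sinuses, while lymphocytes enter from blood through high endothelial venules. The comparison asks which node transcripts differ with epidermal *Ifnk* whether or not the skin was irradiated.

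The 12 libraries held between 27599809 and 36428435 counts. All had the transcripts of a lymph node. *Cd3e* ranged from 281 to 359 CPM (read counts scaled to a common library size) in WT and from 302 to 354 CPM in *Ifnk* TG libraries, and the B cell gene *Ms4a1* from 385 to 479 CPM and from 247 to 532 CPM. Epidermal *Krt14* and *Krt1* had at most 1 count in any library and *Krt5* at most 2, while *Krt10* had 33 to 77 counts. The milk genes *Wap* and *Csn2* had at most 3 counts and the epithelial keratin gene *Krt18* at most 11. *Ifnk* itself had 0 counts in all 12 libraries, which allows a share of up to 8.24e-06% to 1.09e-05% of a library. The transgene is driven in the epidermis, so its absence checks no genotype label. *Xist* had 3 to 42 counts and the Y-linked *Ddx3y* 2507 to 7084 counts, a male pattern in every library. Replicates of a group differed by 15.1 to 104 times the spread that counting alone gives (chi-square per degree of freedom), so no group held 2 copies of a library. Libraries of different groups were not compared in this way.

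Some libraries stood apart. The first principal component, with 27.9% of the variance, held NoTx libraries between -31.5 and -17.4 and WT UVTx libraries between 30.6 and 49.7. Among *Ifnk* TG UVTx libraries replicate 10 lay at 37.6, replicate 11 at 9.7 and replicate 12 at -19.5, among the NoTx libraries. On the second component, with 15.4%, *Ifnk* TG NoTx replicate 5 lay at 26.1 and the other NoTx libraries between -8.9 and -0.1. *Ifnk* TG UVTx replicates 11 and 12 lay at 54.5 and -33. List medians without *Ifnk* TG NoTx replicate 5 are not given here. Values without *Ifnk* TG UVTx replicate 11, replicate 12 or both stand beside the ISGs and the lists with the highest medians. Without both, replicate 10 was the only *Ifnk* TG UVTx library, so such values have no spread within that group.

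A single transcript passed the test for genotype. Of 16173 tested genes, *Glo1* alone had an adjusted p under 0.05 in the quasi-likelihood test of edgeR, which is 0.00618% of the genes, and it rose in *Ifnk* TG nodes. No gene fell. At an unadjusted p under 0.05 there were 706 genes (4.37%), 508 higher (3.14%) and 198 lower (1.22%) in *Ifnk* TG nodes, and DESeq2 gave 905. DESeq2 called 12 genes after adjustment, 8 higher and 4 lower. The intervals bound what such nodes could have differed by. For 10501 genes (64.9%) the 95% interval of the fold lay within 1.5-fold in either direction, and for 13518 (83.6%) within 2-fold. The median log2 fold change over all tested genes was -0.003.

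*Glo1* (ENSMUSG00000024026, minus strand of GRCm38 chromosome 17 from 30584936 to 30626871) encodes glyoxalase 1, the glutathione-dependent enzyme that removes methylglyoxal, a reactive by-product of glycolysis. In NoTx nodes *Glo1* stood at 72.8, 75.8 and 79.6 CPM in WT and at 95.5, 109 and 104 CPM in *Ifnk* TG libraries. In UVTx nodes it stood at 65.1, 75.8 and 74.7 CPM in WT and at 99.3, 96.3 and 98.6 CPM in *Ifnk* TG libraries. The highest WT library lay below the lowest *Ifnk* TG library, and within each genotype the NoTx and UVTx libraries overlapped. The means were 74.0 ± 4.89 CPM in WT and 100 ± 5.22 CPM in *Ifnk* TG nodes (SD, n = 6 each), a 1.36-fold increase with a 95% interval from 1.25 to 1.48 (log2 fold change 0.44, SE 0.06, adjusted p = 0.0197 by edgeR). The log2 fold change was 0.43 in NoTx and 0.45 in UVTx nodes, and the interaction of 0.01 gave an unadjusted p of 0.899 in edgeR's fit. The increase is smaller than 1.5-fold at every point of its interval.

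The size of the *Glo1* difference varied little between fits, while its call depended on single libraries. Leaving out each library in turn gave log2 fold changes from 0.41 to 0.47 and adjusted p-values from 0.0254 to 0.159 in edgeR. *Glo1* was called in 5 of these 12 fits, those without WT replicates 3 and 8 and those without *Ifnk* TG replicates 4, 10 and 12. Without *Ifnk* TG UVTx replicates 11 and 12 the log2 fold change was 0.45 with an adjusted p of 0.0476. With *Xist* as a covariate it was 0.44 with an adjusted p of 0.0722. Every library had a male pattern, so this covariate could not adjust for sex.

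*Glo1* has a processed copy, *Glo1-ps* (ENSMUSG00000075391, chromosome 2 from 35340409 to 35340963), whose reads cannot be cleanly parted from those of *Glo1*. Its 555 annotated bases matched the *Glo1* transcript at 552 positions (99.5%), and 180 of its 405 windows of read length, 151 bases, occur letter for letter in a *Glo1* transcript. *Glo1-ps* ran from 8.03 to 10.4 CPM in WT libraries (median 8.57) and from 11.6 to 13.8 CPM in *Ifnk* TG libraries (median 12.3). The genotypes did not overlap, and the log2 fold change was 0.50 (SE 0.09), close to that of *Glo1*, but *Glo1-ps* did not pass (adjusted p = 0.284 by edgeR). With the counts of both summed, the log2 fold change of *Glo1* was 0.45 and its adjusted p 0.00971.

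**Figure D1:**
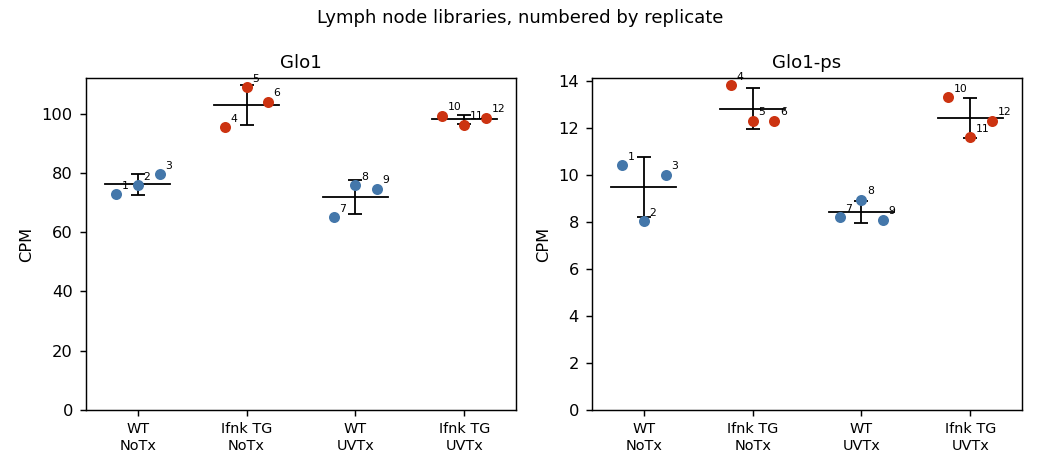
CPM of *Glo1* and *Glo1-ps* in each of the 12 lymph node libraries by group, with replicate numbers beside the points; bars give the group mean and SD (n = 3) and the axes start at 0. The 6 *Ifnk* TG libraries lie between 95.5 and 109 CPM for *Glo1*, all above the 6 WT libraries.

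Of the genes around *Glo1* none was called. Within 1 Mb there were 30 other tested genes, of which 17 had higher values in *Ifnk* TG nodes, with a median log2 fold change of 0.01 and a range from -0.28 to 1.44. None had separated libraries, and 2 had an unadjusted p under 0.05. *Btbd9*, which starts 8 kb away and encodes a BTB-domain protein, had a log2 fold change of 0.07 (SE 0.07). *Dnah8*, a dynein heavy chain gene that overlaps the start of *Glo1* on the annotation, had -0.15 (SE 0.16). The unnamed transcript *Gm50244*, which lies inside the span of *Glo1*, had 1.08 (SE 0.41, unadjusted p = 0.0194), and reads of both overlapping genes may be shared. *Pde9a*, a cyclic GMP phosphodiesterase gene 759 kb away, had 1.44 (SE 0.59, unadjusted p = 0.0288).

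**Figure D2:**
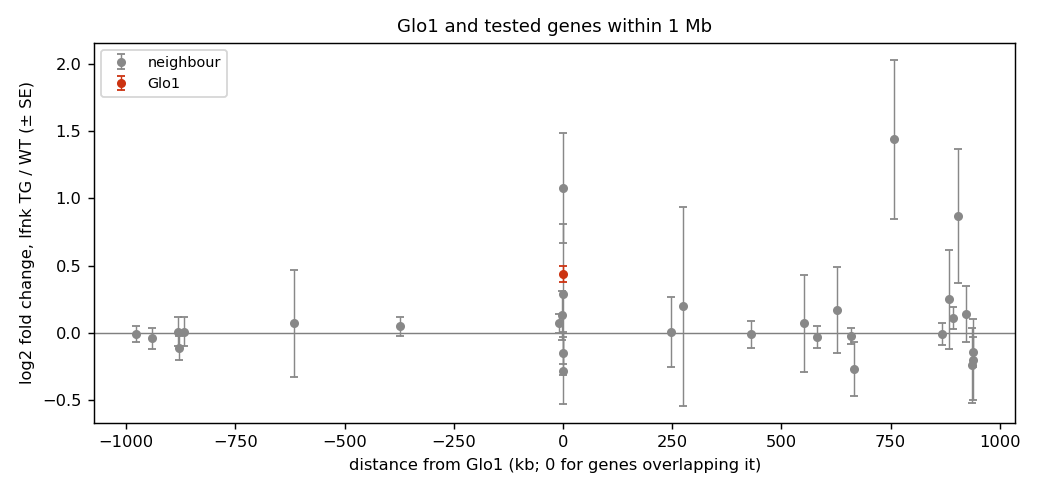
Log2 fold change of *Ifnk* TG over WT nodes (± SE) for *Glo1* (red) and the 30 other tested genes within 1 Mb (grey), against distance from *Glo1* in kb. The neighbours have a median of 0.01 and a range from -0.28 to 1.44.

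Separation of the libraries was rare as well. In 22 genes (0.136%) the ranges of the genotypes did not overlap, with 16 higher (0.0989%) and 6 lower (0.0371%). Beside *Glo1* and its copy, the separated genes with higher values included *Mgst1*, a microsomal glutathione transferase, *Grhpr*, which reduces glyoxylate and hydroxypyruvate, *Acaa1b*, a peroxisomal thiolase, and *Tgfa*, a ligand of the EGF receptor. None of the 4 passed. *Mgst1* ran from 0.483 to 0.991 CPM in WT libraries and from 1.16 to 1.96 CPM in *Ifnk* TG libraries (log2 fold change 1.13, unadjusted p = 0.000674 by edgeR). *Grhpr* ran from 9.27 to 11.6 CPM and from 11.8 to 13.8 CPM (log2 fold change 0.23, unadjusted p = 0.0196 by edgeR). Of the 6 separated genes with lower values 2, *Tnfrsf19* and *Dok2*, lay on chromosome 14.

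Among genes with a mean of at least 1 CPM over the 12 libraries, those with the next smallest p after *Glo1* and *Glo1-ps* and higher values in *Ifnk* TG nodes were *Ctnnd1*, *Cbr2*, *Tjp1* and *Uaca*, none of which passed. *Ctnnd1* encodes p120-catenin, which holds cadherins at cell junctions, and *Tjp1* encodes the junction scaffold ZO-1. *Ctnnd1* ran from 3.63 to 7.78 CPM (median 5.19) in WT and from 5.90 to 15.5 CPM (median 8.46) in *Ifnk* TG libraries, a log2 fold change of 0.76 (SE 0.15, adjusted p = 0.284 by edgeR). *Tjp1* ran from 1.31 to 2.84 CPM (median 1.84) and from 2.20 to 5.14 CPM (median 3.24), a log2 fold change of 0.75 (SE 0.16, adjusted p = 0.482 by edgeR). For both genes the ranges overlapped over the whole set, but within each treatment every *Ifnk* TG library lay above every WT library. Taken alone, NoTx nodes had 5.52% of all tested genes separated in this direction and UVTx nodes 5.39%. The share separated in both treatments was not counted. *Cbr2*, a carbonyl reductase gene also expressed by resident macrophages, ran from 0.300 to 1.20 CPM in WT and from 1.10 to 4.06 CPM in *Ifnk* TG libraries, a log2 fold change of 1.52 (SE 0.31, adjusted p = 0.333 by edgeR). *Uaca* had a log2 fold change of 0.85 (SE 0.19, adjusted p = 0.482 by edgeR). In all 4 genes *Ifnk* TG NoTx replicate 5 was the highest library, and DESeq2 called all 4.

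Among genes with a mean of at least 1 CPM, the smallest p-values with lower values in *Ifnk* TG nodes belonged to *Tnfrsf19*, *Itga7*, *Dok2*, *Lacc1*, *Ndfip2* and *Tnfrsf22*, again without a call in edgeR. *Tnfrsf19* (chromosome 14 from 60963875 to 61046490), a TNF receptor family member also known as TROY, ran from 5.35 to 7.39 CPM (median 6.42) in WT and from 0.730 to 3.11 CPM (median 2.08) in *Ifnk* TG libraries. The genotypes were apart in both treatments, and the log2 fold change was -1.62 (SE 0.30, adjusted p = 0.284 by edgeR). Taken alone, NoTx nodes had 4.93% of all tested genes separated below and UVTx nodes 4.32%, and the share in both was not counted. *Dok2* (chromosome 14 from 70766036 to 70778495), an adaptor that dampens signalling from antigen and cytokine receptors in T cells and myeloid cells, ran from 82.3 to 107 CPM (median 89.8) in WT libraries. In *Ifnk* TG libraries *Dok2* stood at 32.1, 36.0 and 56.6 CPM in NoTx nodes and at 74.8, 34.4 and 31.4 CPM in UVTx nodes. All 6 lay below the WT libraries, but replicate 10 came close to them, and the log2 fold change of -1.07 (SE 0.21) had an adjusted p of 0.482 by edgeR. Without replicate 10 edgeR called *Dok2*, with a log2 fold change of -1.28 and an adjusted p of 0.0324.

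*Lacc1* (chromosome 14 from 77024200 to 77036904), an enzyme of purine and polyamine metabolism in macrophages, ran from 9.33 to 17.1 CPM (median 11.5) in WT and from 3.15 to 10.1 CPM (median 5.85) in *Ifnk* TG libraries. Its highest *Ifnk* TG library was again replicate 10, and the log2 fold change was -0.99 (SE 0.26, adjusted p = 0.996 by edgeR). *Ndfip2* (chromosome 14 from 105258573 to 105309298), an adaptor of NEDD4 ubiquitin ligases, ran from 44.3 to 55.2 CPM and from 37.4 to 47.1 CPM, also with replicate 10 at the top. The log2 fold change of *Ndfip2* was -0.44 in NoTx and -0.09 in UVTx nodes (interaction unadjusted p = 0.00975 by edgeR). *Itga7*, the laminin receptor integrin α7 on chromosome 10, had a log2 fold change of -0.66 (SE 0.14, adjusted p = 0.451 by edgeR), and *Tnfrsf22*, a decoy receptor for TRAIL on chromosome 7, of -0.30 (SE 0.09). DESeq2 called *Tnfrsf19*, *Dok2*, *Itga7* and *Fscn3* lower. *Fscn3*, a fascin of the testis whose unadjusted p of 7.4e-05 was below that of *Tnfrsf19*, was near the floor, with up to 1.13 CPM in WT and up to 0.0306 CPM in *Ifnk* TG libraries.

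**Figure D3:**
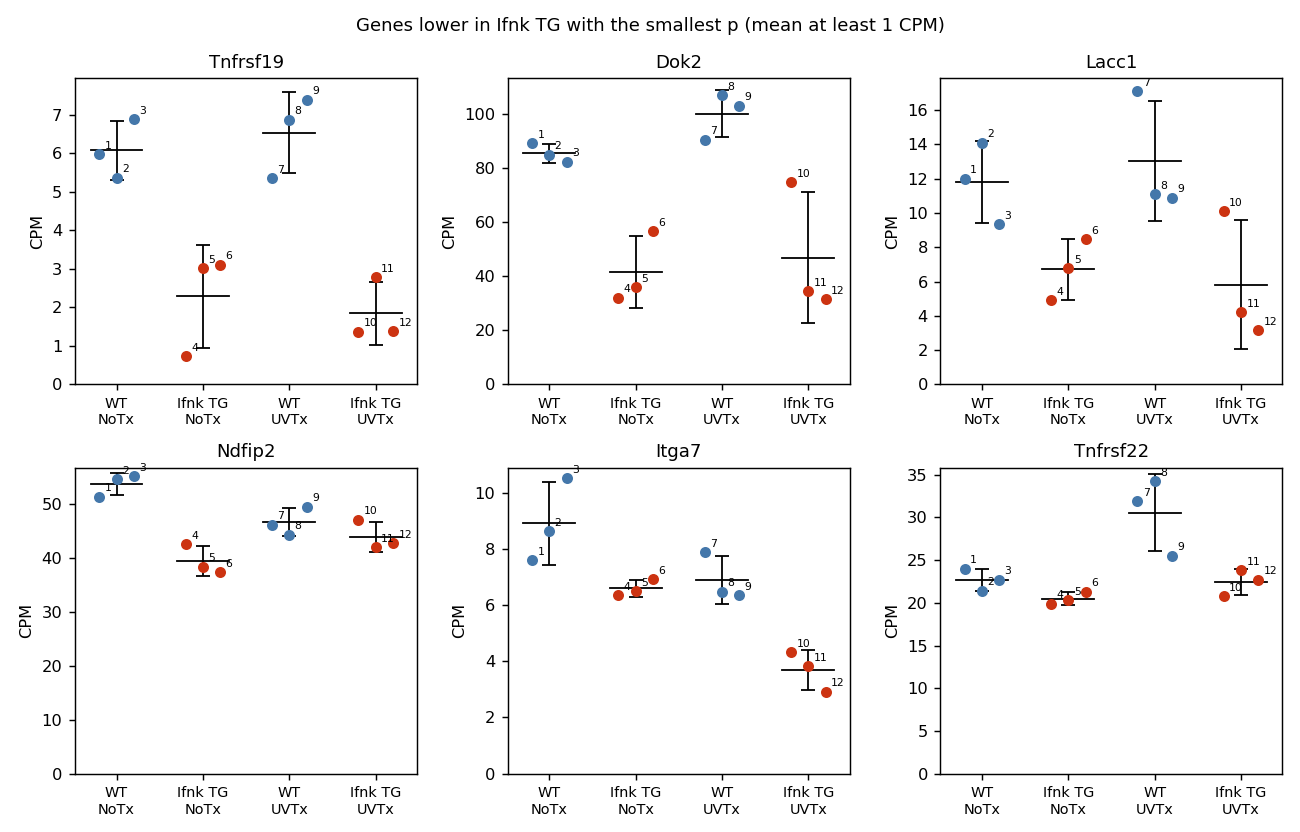
CPM of the 6 genes with the smallest p among those lower in *Ifnk* TG nodes and with a mean of at least 1 CPM, by library and group, with replicate numbers; bars give the group mean and SD (n = 3) and the axes start at 0. *Tnfrsf19* and *Dok2* are separated over all 12 libraries, and *Ifnk* TG replicate 10 is the highest *Ifnk* TG library for *Dok2*, *Lacc1* and *Ndfip2*.

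These 4 chromosome 14 genes lie between 60 and 106 Mb, a stretch chosen after their values were seen and therefore described without a test. It held 173 tested genes, of which 18, or 10.4%, had an unadjusted p under 0.05, against 4.37% of all genes and 5.43% of those on chromosome 14. The 18 include the 4 genes that set the stretch, all of them lower, so that choice itself raised the share. The stretch had no common direction, with 9 of the 18 higher and 9 lower and a median log2 fold change of -0.01 over all 173. Among the higher were *Dnajc15*, a mitochondrial co-chaperone, with 0.47, *Rnaseh2b*, a subunit of ribonuclease H2, with 0.31, and *Pcdh17*, a protocadherin, with 1.64.

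Red cell, neutrophil, γδ T cell, lymphatic endothelial, blood endothelial and stromal genes had the 6 highest medians of the 46 lists of genes examined, in that order, with no member called. In bulk RNA more cells of a type and more RNA per cell cannot be told apart. All 12 tested lymphatic endothelial genes were higher, with a median log2 fold change of 0.54 and 5 at an unadjusted p under 0.05, where 49% of all tested genes were higher and 3.14% passed that level upwards. *Marco*, a scavenger receptor of lymph node macrophages and sinus endothelium, ran from 1.79 to 5.53 CPM (median 3.97) in WT and from 5.21 to 14.9 CPM (median 6.73) in *Ifnk* TG libraries, a log2 fold change of 1.15 (SE 0.34, unadjusted p = 0.00527 by edgeR). *Prox1*, the transcription factor that sets lymphatic identity, stood at 1.15 ± 0.553 CPM in WT and 1.64 ± 0.502 CPM in *Ifnk* TG nodes (SD, n = 6 each). *Lyve1*, the hyaluronan receptor of these vessels, stood at 1.99 ± 0.585 and 3.33 ± 1.87 CPM.

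Of 19 high endothelial and blood endothelial genes 16 were higher, with a median of 0.45 and 7 at an unadjusted p under 0.05. *Chst4*, which sulfates the ligands that lymphocyte L-selectin binds on high endothelial venules, had a log2 fold change of 1.46 (SE 0.41, unadjusted p = 0.00282 by edgeR) at 0.316 and 0.861 CPM on average. *Cdh5*, VE-cadherin, stood at 5.63 ± 0.585 CPM in WT and 7.45 ± 1.26 CPM in *Ifnk* TG nodes (SD, n = 6 each), a log2 fold change of 0.40. Fibroblast and reticular cell genes were higher in 17 of 19, with a median of 0.38 and none at an unadjusted p under 0.05. *Ccl21a* and *Ccl19*, the chemokines that draw CCR7-bearing cells into the T cell zone, had log2 fold changes of 0.54 (SE 0.38) and 0.62 (SE 0.43).

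The nodes were pressed through a strainer before lysis, and levels of stromal genes varied widely between replicates of a group. *Ifnk* TG NoTx replicate 5 had the highest score, that is the mean log2 CPM of a list centred over the 12 libraries, in the blood endothelial (1.02), lymphatic (0.84) and stromal (1.04) lists. WT UVTx replicates 8 and 9 had the lowest scores in the blood endothelial list (-0.85 and -0.91) and the stromal list (-1.12 and -0.97). The part that tissue recovery had in these values was not tested. Without *Ifnk* TG UVTx replicates 11 and 12 the medians were 0.47 for lymphatic and 0.44 for blood endothelial genes, and that of the stromal genes was 0.23. Without replicate 12 alone the median was 0.34 for lymphatic and 0.13 for stromal genes. In UVTx nodes alone it went from 0.48 to 0.16 for lymphatic, from 0.38 to 0.22 for blood endothelial and from 0.46 to 0.03 for stromal genes. Without WT UVTx replicate 8 the UVTx median was 0.3 for lymphatic and 0.17 for stromal genes, and the stromal median over both treatments was 0.24.

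Neutrophil genes were higher in 8 of 9, with a median of 0.91 and 4 at an unadjusted p under 0.05. *Csf3r*, the G-CSF receptor, ran from 0.909 to 2.33 CPM (median 1.70) in WT and from 1.69 to 5.87 CPM (median 3.06) in *Ifnk* TG libraries. The alarmin genes *S100a8* and *S100a9* had log2 fold changes of 1.52 (SE 0.62) and 1.74 (SE 0.66). In UVTx nodes this rested on replicate 12, whose score was 1.15 against -0.77 and -0.71 in the other *Ifnk* TG libraries. Without it the UVTx median went from 0.99 to -0.21 and the median over both treatments from 0.91 to 0.65, and without replicates 11 and 12 the latter was 0.55. The NoTx median was 0.84.

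Macrophage and monocyte genes were higher in 18 of 22, with a median of 0.25. *Cd68*, a lysosomal protein of macrophages, ran from 10.7 to 13.6 CPM in WT and from 12.9 to 16.5 CPM in *Ifnk* TG libraries, a log2 fold change of 0.32 (SE 0.10, unadjusted p = 0.00518 by edgeR). *Apoe* and *Timd4*, both of tissue macrophages, had 0.46 and 0.50. Complement genes were higher in 13 of 17, with a median of 0.33 that was 0.19 without *Ifnk* TG UVTx replicate 12, and *C2* had the smallest p with 0.57 (SE 0.26). Of 9 genes of γδ T cells 8 were higher, with a median of 0.55 that was 0.62 without *Ifnk* TG UVTx replicates 11 and 12. The median was 0.73 in NoTx and 0.37 in UVTx nodes, the latter 0.12 without WT UVTx replicate 8. At an unadjusted p under 0.05, 4 of them were higher in NoTx and 0 in UVTx nodes, against 1.77% and 4.14% of all tested genes. *Ifnk* TG NoTx replicate 5 had the highest score (0.95). *Trgc1*, a constant segment of the γ chain, had a log2 fold change of 0.95 (SE 0.33), while *Trdc*, the δ constant segment, had 0.13 (SE 0.11).

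All 8 erythroid genes were higher, with a median of 1.26. *Hbb-bs*, an adult β-globin, stood at 52.8, 52.5 and 100 CPM in WT NoTx and 115, 118 and 97.9 CPM in *Ifnk* TG NoTx libraries. In UVTx nodes *Hbb-bs* stood at 5.53, 4.54 and 15.6 CPM in WT and 10.3, 43.6 and 66.4 CPM in *Ifnk* TG libraries. The UVTx difference rested on replicates 11 and 12. Without them replicate 10 was the only *Ifnk* TG UVTx library, and the median of the list was 0.28 in UVTx nodes and 0.59 over both treatments.

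**Figure D4:**
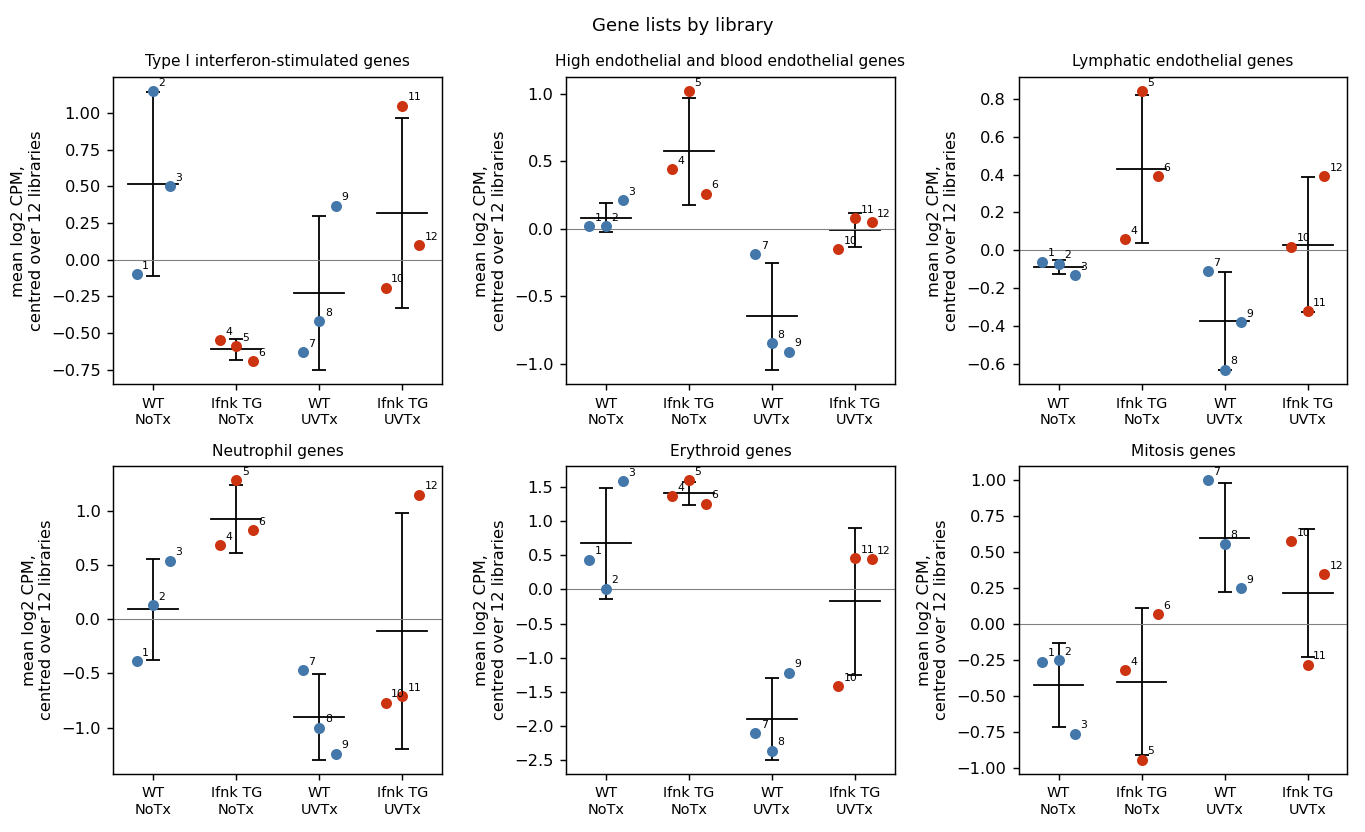
Score of 6 gene lists (mean log2 CPM of the tested members, centred over the 12 libraries) by library and group, with replicate numbers; bars give the group mean and SD (n = 3). ISGs are low in all 3 *Ifnk* TG NoTx libraries and spread widely in the other groups, and *Ifnk* TG UVTx replicate 12 stands apart in its group for neutrophil genes.

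ISG levels lay in opposite directions in the 2 treatments. Of 64 tested ISGs none was called, 4 were higher in *Ifnk* TG nodes and the median log2 fold change was -0.27. In NoTx nodes 63 of the 64 were lower in *Ifnk* TG libraries, with a median of -0.92, and in UVTx nodes 57 were higher, with a median of 0.42. Over all tested genes 49% were higher in NoTx and 51.2% in UVTx nodes. In NoTx nodes 51 of the ISGs were lower at an unadjusted p under 0.05, a level that 3.39% of all tested genes reached, 1.63% lower and 1.77% higher. In UVTx nodes 5 ISGs were higher at that level, which 6.99% of all tested genes reached, 4.14% higher and 2.85% lower. The interaction had an unadjusted p under 0.05 in 52 of the 64, all towards higher values after UVB, against 5.45% of all tested genes, but no gene passed after adjustment in edgeR (881 genes at an unadjusted p under 0.05). Without *Ifnk* TG UVTx replicate 11 the 52 became 40. Leaving out replicates 11 and 12 left replicate 10 as the only *Ifnk* TG UVTx library, so no count is given for that fit. DESeq2 called 5 genes for the interaction, among them the sensor *Ifih1* and the ISG *Lgals3bp*.

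Single libraries carried much of this. *Isg15*, a ubiquitin-like modifier, stood at 12.0, 53.1 and 41.9 CPM in WT NoTx and at 11.0, 7.01 and 6.71 CPM in *Ifnk* TG NoTx libraries. In UVTx nodes it stood at 5.47, 5.71 and 18.3 CPM in WT and at 8.58, 46.5 and 19.4 CPM in *Ifnk* TG libraries. WT NoTx replicates 2 and 3 and *Ifnk* TG UVTx replicate 11 were high, and the genotypes overlapped in UVTx nodes. *Irf7*, the factor that amplifies type I IFN production, was highest in WT NoTx replicate 2 and *Ifnk* TG UVTx replicate 11, with 78.7, 208 and 112 CPM in WT NoTx and 49.9, 39.9 and 38.7 CPM in *Ifnk* TG NoTx libraries. In UVTx nodes *Irf7* stood at 50.4, 64.9 and 120 CPM in WT and 69.6, 185 and 77.2 CPM in *Ifnk* TG libraries. Without *Ifnk* TG UVTx replicate 11 the UVTx median of the list went from 0.42 to 0.09, with 41 of 64 higher. Without replicates 11 and 12, which left replicate 10 alone in its group, the UVTx median was -0.08 and the median over both treatments -0.57. Without WT NoTx replicate 2 the NoTx median was -0.58 and the main-effect median -0.10.

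The ISG with the smallest p in the main effect was *Gm4951*, an immunity-related GTPase family gene, which was among the 4 with higher values in *Ifnk* TG nodes, beside *Bst2*, *Ifi44l* and *Oas1a*. It ran from 0.614 to 2.10 CPM (median 1.69) in WT and from 1.67 to 7.73 CPM (median 2.97) in *Ifnk* TG libraries. The log2 fold change was 1.06 (SE 0.31, adjusted p = 0.996 by edgeR). By treatment *Gm4951* had 0.40 in NoTx and 1.69 in UVTx nodes (interaction unadjusted p = 0.0266 by edgeR). *Irf9*, the DNA-binding subunit of ISGF3, ran from 134 to 218 CPM (median 167) and from 103 to 186 CPM (median 140). Its log2 fold change was -0.31 (SE 0.14), with -0.61 in NoTx and -0.01 in UVTx nodes (interaction unadjusted p = 0.0136 by edgeR). *Ddx58*, which encodes the RNA sensor RIG-I, had -0.66 in NoTx and 0.28 in UVTx nodes. The receptor subunit gene *Ifnar1* had 136 ± 4.46 CPM in WT and 138 ± 13.4 CPM in *Ifnk* TG nodes (SD, n = 6 each), a log2 fold change of 0.02 with a 95% interval from -0.12 to 0.16.

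The shared element of these genes is shown for *Phf11a*, *Oas3* and *Slfn8*, the ISGs with the smallest interaction p among those whose promoter held it, chosen after their values were seen. The core of the ISRE, a TTTC followed after any 2 bases by another TTTC, or GAAA and GAAA with the same spacing as read on the opposite strand, was searched in the 250 bases before each RefSeq start (GRCm38.p6). Of the 64 ISGs 48 had a promoter in the table, and 22 (45.8%) held the core, against 365 of 10964 tested genes with a promoter (3.33%). The windows are printed 5′ to 3′ on the strand of the gene, all of them the minus strand, with the core in capitals. They lie at chr14:59297523-59297571 for *Phf11a*, chr5:120777705-120777754 for *Oas3* and chr11:83020829-83020878 for *Slfn8*.
Phf11a: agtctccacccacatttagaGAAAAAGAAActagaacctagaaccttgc
Oas3: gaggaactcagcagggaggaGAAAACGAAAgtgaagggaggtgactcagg
Slfn8: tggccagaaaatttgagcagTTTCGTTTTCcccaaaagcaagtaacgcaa
*Phf11a*, a PHD-finger gene of lymphocytes, had log2 fold changes of -1.52 in NoTx and 0.89 in UVTx nodes. *Oas3*, which makes the 2′-5′ oligoadenylates that activate RNase L, had -2.0 and 1.09. *Slfn8*, a Schlafen family gene, had -0.75 and 0.24. The main effects of the 3 were -0.33, -0.44 and -0.25, with adjusted p-values of 1 by edgeR.

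Other lists of IFN-responsive and antigen presentation genes had medians between -0.19 and -0.01 over both treatments. All 11 guanylate-binding protein genes were lower in the main effect, by a median of -0.13, and 10 of them had an interval within 2-fold. In NoTx nodes 0 of the 11 were higher in *Ifnk* TG libraries (median -0.28), and in UVTx nodes 7 were (median 0.03). Without WT NoTx replicate 2 the main effect had 3 of the 11 higher, with a median of -0.06. Of 9 immunity-related GTPases 2 were higher, with a median of -0.19 that was -0.07 without WT NoTx replicate 2. By treatment 0 of the 9 were higher in NoTx and 6 in UVTx nodes. MHC class I and peptide-loading genes had a median of -0.01 and MHC class II genes of -0.09, or -0.16 without WT UVTx replicate 8. The class II score was -0.61 in *Ifnk* TG NoTx replicate 5 and from -0.14 to 0.22 in the other *Ifnk* TG libraries. WT libraries had class II scores from -0.13 to 0.26. Of the class I genes 5 were higher in NoTx and 19 in UVTx nodes, and of the class II genes 0 and 8. All 25 and all 14 tested genes of these lists had 95% intervals within 2-fold in either direction, and 24 and 13 within 1.5-fold.

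Lymphocyte identity genes had narrow intervals around 0. T cell identity genes were higher in 9 of 21, with a median of -0.02, and B cell identity genes in 1 of 18, with a median of -0.09. All 21 and all 18 had intervals within 1.5-fold. The B cell score was -0.67 in *Ifnk* TG NoTx replicate 5 and from -0.12 to 0.24 in the other *Ifnk* TG libraries. WT libraries had B cell scores from -0.09 to 0.21. *Cd28*, the costimulatory receptor of T cells, ran from 177 to 246 CPM in WT and from 148 to 225 CPM in *Ifnk* TG libraries, and *Blnk*, the B cell receptor adaptor, from 64.3 to 84.5 CPM and from 45.8 to 82.6 CPM. Among genes of activated and memory T cells 12 of 19 were higher, with a median of 0.03. *Maf*, a factor of Th17, follicular helper and γδ T cells, ran from 20.9 to 38.1 CPM in WT and from 29.2 to 47.1 CPM in *Ifnk* TG libraries. Its log2 fold change was 0.35 (SE 0.14), with 0.64 in NoTx and 0.06 in UVTx nodes (interaction unadjusted p = 0.0223 by edgeR). *Cxcr3*, the Th1 chemokine receptor, had 0.24 (SE 0.10). Regulatory T cell genes had a median of -0.12, or -0.21 without *Ifnk* TG UVTx replicate 12, with *Penk* at -0.53 (SE 0.19). Germinal centre genes had a median of 0.05, plasma cell genes of 0.00 and immunoglobulin constant genes of 0.04. The first was 0.27 without *Ifnk* TG UVTx replicates 11 and 12, and the last 0.18 without WT NoTx replicate 2. *Igha*, the IgA constant gene, had 1.31 ± 0.726 CPM in WT and 2.64 ± 2.42 CPM in *Ifnk* TG nodes (SD, n = 6 each), and its log2 fold change of 0.86 had an interval from -0.06 to 1.77.

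Values of the cell cycle and stress lists changed with single libraries. Mitosis genes were higher in 2 of 26, with a median of -0.15, with 0.07 in NoTx and -0.34 in UVTx nodes, and without *Ifnk* TG UVTx replicates 11 and 12 the median was 0.05. Heat shock genes were higher in 1 of 19, with a median of -0.26. *Hspa1b*, an inducible HSP70 gene, stood at 123 CPM in WT UVTx replicate 8 and at most 6.97 CPM in every other library, and without that library the median of the list was -0.05, and without *Ifnk* TG UVTx replicates 11 and 12 it was -0.13. Mitochondrially encoded genes were higher in 13 of 13, with a median of 0.27, and *mt-Nd4l* had the smallest p with 0.33 (SE 0.10, adjusted p = 0.996 by edgeR). The median was 0.11 in NoTx and 0.43 in UVTx nodes. Without WT NoTx replicate 2 the NoTx median was -0.01, with 6 of 13 higher, and the median over both treatments 0.24.

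**Figure D5:**
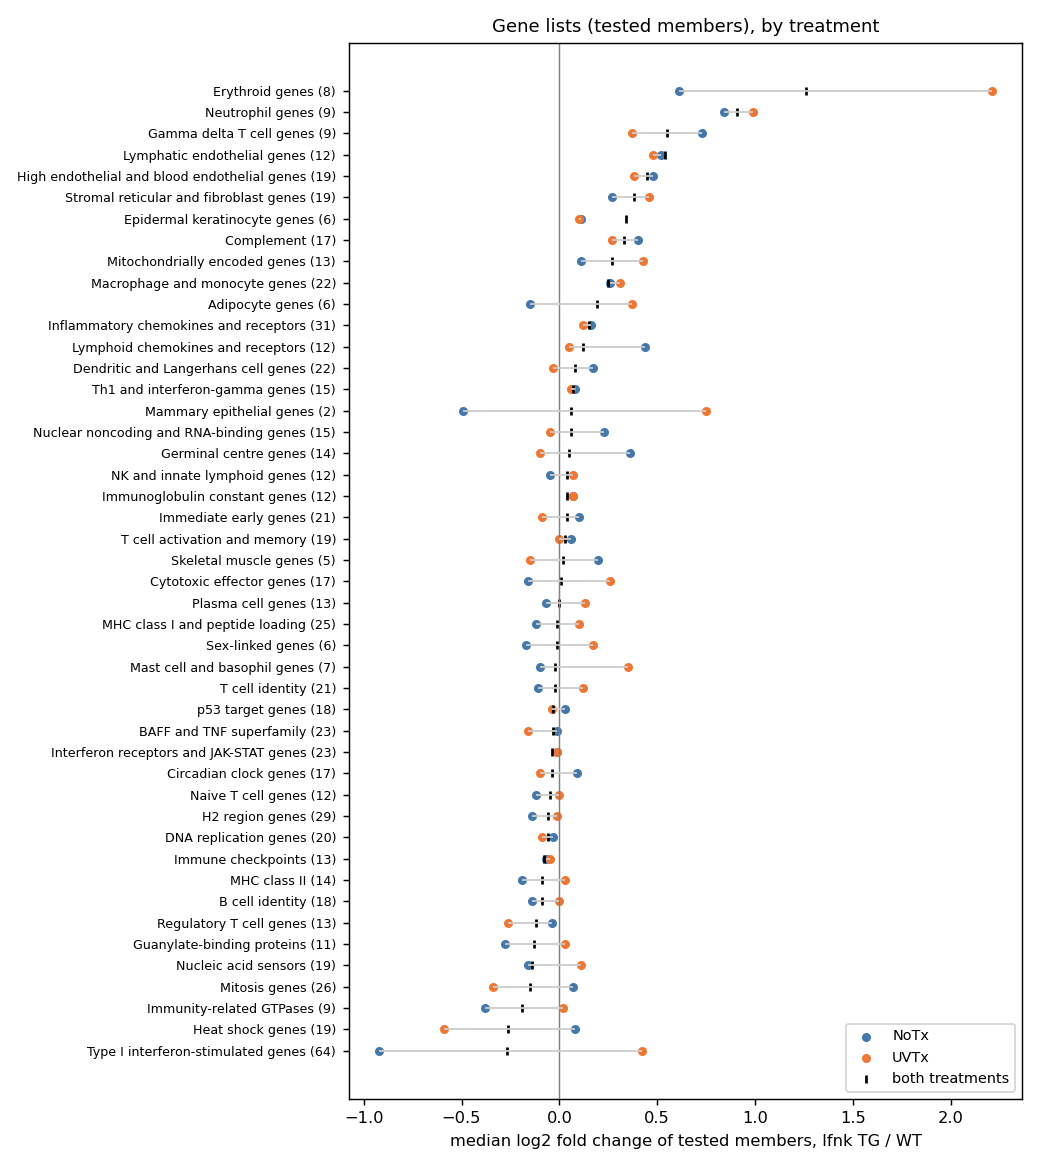
Median log2 fold change of *Ifnk* TG over WT nodes for 46 gene lists, with the number of tested members, in NoTx nodes (blue), in UVTx nodes (orange) and in the main effect (black tick). ISGs lie at -0.92 and 0.42, and lymphatic endothelial genes at 0.52 and 0.48, the latter 0.16 without *Ifnk* TG UVTx replicate 12.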

How the data were processed

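Bulk RNA of inguinal nodes, lysed after passage through a cell strainer, was sequenced from poly-A libraries. Per the submitters' processing notes the authors used cutadapt 4.8, FastQC 0.11.8, STAR 2.7.8a, RSEM 1.3.3 and MultiQC 1.20 on GRCm38. The annotation release is not given in the sources used here. The deposited table holds expected counts per gene, which were already whole numbers. All 12 node libraries bear the same batch label. Totals ran from 27599809 to 36428435 counts. Intervals of fold changes rest, like the p-values, on the spread between these libraries. The limit for a count of 0 (3 counts) covers counting error only, and no molecular identifiers were used. The 4 reporter entries, at 0 counts, were left out. Gene positions came from GENCODE M21, which matched 16143 of the 16173 tested genes.

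Genes were kept by filterByExpr (minimum count 10, minimum total count 15) in edgeR 4.0.16 (R 4.3.3, limma 3.58.1), scaled by TMM and tested with the robust quasi-likelihood test for genotype with treatment as a block. A 4-group fit gave the effects within NoTx and UVTx and their interaction. P-values were adjusted over all tested genes by Benjamini-Hochberg, with a threshold of 0.05. Fold changes are *Ifnk* TG over WT and CPM values use TMM-scaled totals. DESeq2 1.42.0, other scalings, filters, designs and the removal of each library were alternatives. The code was checked on simulated data. Named genes were those passing the test, those with the smallest p in each direction, and the member with the smallest p in each list; further genes were chosen after their values were seen. The comparison, its members and the gene lists were chosen with earlier results of these data known. Some genes and sequences are not reported here.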

Additional observations from a re-analysis of the deposited data

Results flagged for a closer look

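In the 6 libraries of each genotype, list scores and gene levels were searched for a library whose gap to the nearest other library, divided by the range of its group, exceeded Dixon's 95% critical value for 6 samples. Of 116 groups searched 4 did, and chance gives about 1 in 20. The immunoglobulin constant gene score was lowest in *Ifnk* TG NoTx replicate 5, with a ratio of 0.709. The skeletal muscle score was lowest in *Ifnk* TG UVTx replicate 12 (0.724). Among WT libraries NoTx replicate 2 was lowest in both the immediate early gene score (0.784) and the circadian clock score (0.64). None of these 4 lists had a member that passed the test for genotype.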

How the results depend on the processing

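The 12 libraries, in groups of 3, limit what can be seen, and the genotype of a library could not be checked from *Ifnk*. No paired analysis was possible because the replicate numbers run from 1 to 12 and none is shared between groups. For the main effect, DESeq2 called 12 genes, 8 higher and 4 lower. No gene was called with *Xist* as a covariate, at an adjusted p under 0.01, or against a 1.5-fold threshold (0 in each). Without *Ifnk* TG UVTx replicates 11 and 12, a choice made after seeing the data, 2 genes were called, *Glo1* and *Gm47761*. For genotype within treatments, edgeR called 0 genes in NoTx (549 at an unadjusted p under 0.05) and 0 in UVTx nodes (1131), whereas DESeq2 called 2 and 21. For the interaction edgeR called 0 and DESeq2 5. Leaving out single libraries gave 0 to 2 genes for the main effect, 0 to 1 higher, 0 to 1 lower and 0 to 1 for the interaction. The lower genes were *Fscn3* without WT NoTx replicate 3 and *Dok2* without *Ifnk* TG UVTx replicate 10. The interaction gene was *Arf5* without WT NoTx replicate 3. *Glo1* was called in 17 of 27 alternatives, with log2 fold changes from 0.41 to 0.47. Some list medians turned their direction. For example, without *Ifnk* TG UVTx replicates 11 and 12 the mitosis median went from -0.15 to 0.05 and the UVTx median of the ISGs from 0.42 to -0.08. These fits kept replicate 10 as the only *Ifnk* TG UVTx library. Without replicate 12 the UVTx median of the neutrophil genes went from 0.99 to -0.21. The causes of these changes were not tested.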
